A study of Mus musculus with 35 samples.

Results

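The regions described here were bound by KLF4 at day 6 of reprogramming and had no listed peak of histone H3 lysine 27 acetylation (H3K27ac) at that day. Merged peaks of the 2 day 6 KLF4 libraries gave 15158 regions found in both, and 6539 of them (43.1%) overlapped no peak in any of the 3 day 6 H3K27ac libraries. Of these 6539 members, 3546 (54.2%) carried an H3K27ac peak in both day 9 libraries and are called later acetylated. Another 2103 (32.2%) carried it in neither day 9 library and are called never acetylated, a name for day 6 and day 9 alone. The remaining 890 (13.6%) had a peak in 1 of the 2 and were kept apart. The other 8619 day 6 KLF4 regions already carried an H3K27ac peak at day 6 and served for comparison.

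KLF4 is a zinc finger transcription factor that binds GC-rich and CACCC-type elements and is one of the factors used to turn somatic cells into pluripotent cells. H3K27ac is laid down by the acetyltransferases p300 and CBP and marks active promoters and enhancers, so that a bound but unacetylated site is often read as not yet active. In epithelial tissues KLF4 is known for its part in differentiation and barrier genes, and in embryonic stem cells for sustaining naive pluripotency.

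The cells were mouse embryonic fibroblasts (MEF) of C57BL/6 x 129 background with the genotype OKSM Col1a1/M2rtTA ROSA26, in which doxycycline switches on Pou5f1, Klf4, Sox2 and Myc together. The MEF libraries came from these fibroblasts, unsorted, in MEF medium without doxycycline. Libraries of days 3, 6 and 9 came from cells in ESC medium to which doxycycline (1 µg/ml) and 50 µg/ml of ascorbic acid had been added, unsorted at day 3 and sorted for SSEA+ cells at days 6 and 9. Embryonic stem cells (ESC) of the line V6.5, a single line labelled with the same background, were grown on feeders in serum with LIF, and 2 KLF4 libraries came from V6.5 with 1 µM MEK inhibitor and 3 µM GSK3 inhibitor added (2i). Each stage had 2 H3K27ac libraries, or 3 at days 3 and 6. KLF4 was mapped with 2 libraries per stage, 2i counted as a stage, and not in MEF.

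The labelled stages were set against H3K27ac at marker genes. All 12 fibroblast markers had a peak in every MEF library, 5 did at day 6, 5 at day 9 and 6 in ESC. Of 10 pluripotency markers, 4 had a peak in every MEF library, 2 at day 6, 9 at day 9 and 10 in ESC. Of 10 epithelial markers it was 5 in MEF, 2 at day 6, 10 at day 9 and 9 in ESC. A peak near these genes thus did not set the stages apart in full, since pluripotency and epithelial markers had more in MEF than at day 6 and fibroblast markers kept some in ESC. H3K27ac lists held 17493 to 88347 peaks and KLF4 lists 21129 to 34640. The day 6 H3K27ac lists were the shortest (17493, 20783 and 22462 peaks) against 43974 and 45506 at day 9. Day 9 H3K27ac was made in batch EA-3702 only and that of MEF and ESC in DG-3458 only, so that stage and batch cannot be told apart there. In these bulk samples fewer cells with a mark and less of it in each cell cannot be told apart.

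Promoter sequences are shown for 4 members to let bound promoters that gained the mark be read beside bound promoters that did not. They are the 250 bases before the start site, 5′ to 3′ on the gene's strand, from RefSeq for GRCm38.p6. Capitals mark the 7-letter elements GGGTGTG or GGGCGTG, the core of the KLF4 motif, on either strand. Zfp42 (chr8:43307010-43307259, minus strand) and Nr5a2 (chr1:136953631-136953880, minus strand) are the listed genes of best KLF4 rank whose promoter window lay wholly in a later acetylated member. Mlxipl (chr5:135106641-135106890, plus strand) and Ptprn2 (chr12:116485470-116485719, plus strand) are the same for never acetylated members, over all genes.
Zfp42: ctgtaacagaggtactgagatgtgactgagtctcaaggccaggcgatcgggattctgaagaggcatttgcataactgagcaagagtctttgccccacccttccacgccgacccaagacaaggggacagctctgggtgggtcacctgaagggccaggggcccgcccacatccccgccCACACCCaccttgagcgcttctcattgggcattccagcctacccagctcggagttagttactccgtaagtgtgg
Nr5a2: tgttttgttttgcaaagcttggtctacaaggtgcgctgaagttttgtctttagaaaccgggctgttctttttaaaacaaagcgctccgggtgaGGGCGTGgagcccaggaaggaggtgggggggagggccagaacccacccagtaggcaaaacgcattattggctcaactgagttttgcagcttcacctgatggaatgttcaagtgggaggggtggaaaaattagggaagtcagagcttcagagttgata
Mlxipl: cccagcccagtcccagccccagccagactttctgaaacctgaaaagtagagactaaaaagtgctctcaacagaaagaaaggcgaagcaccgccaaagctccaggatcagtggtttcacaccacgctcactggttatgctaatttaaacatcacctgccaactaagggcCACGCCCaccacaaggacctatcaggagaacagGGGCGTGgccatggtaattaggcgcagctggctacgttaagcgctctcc
Ptprn2: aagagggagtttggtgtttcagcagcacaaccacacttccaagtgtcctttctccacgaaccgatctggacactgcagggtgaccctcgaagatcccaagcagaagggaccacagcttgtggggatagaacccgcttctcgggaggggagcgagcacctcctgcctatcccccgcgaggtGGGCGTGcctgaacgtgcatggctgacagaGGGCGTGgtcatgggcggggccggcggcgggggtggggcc

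Zfp42, which codes for the pluripotency marker REX1, had its element 74 bases before the start, and Nr5a2, a nuclear receptor that can activate Pou5f1, had it 157 bases before. Mlxipl, which codes for the glucose-responsive factor ChREBP, had elements 82 and 49 bases before the start, and Ptprn2, a phosphatase-like protein of secretory granules, 70 and 40 bases before. Over all 300-base windows from 250 bases before to 50 after a start, 18% of 21044 held at least 1 such element. The share was 38.1% of the 299 windows that overlapped a later acetylated member and 39.5% of the 129 that overlapped a never acetylated one, next to 33.5% of the 4018 windows at regions already acetylated at day 6. Windows under either class held the element at close to the same share.

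At the Zfp42 promoter no H3K27ac peak was listed in any MEF, day 3 or day 6 library, and the authors' fold enrichment was 3.33 and 3.47 at day 9 and 20.1 and 20.0 in ESC. KLF4 was listed there at every stage, with folds of 8.27 and 5.06 at day 3, 12.5 and 8.85 at day 6 and 10.4 and 7.30 at day 9. At the Nr5a2 promoter H3K27ac was again listed from day 9 only, at 10.0 and 11.7, then 26.3 and 18.3 in ESC, but KLF4 was not listed at day 3 and reached 10.0 and 14.6 at day 6. At day 6 the KLF4 folds were 15.6 and 8.36 at Mlxipl and 10.8 and 8.42 at Ptprn2, next to 12.5 and 8.85 at Zfp42. Neither Mlxipl nor Ptprn2 had an H3K27ac peak in any of the 12 libraries.

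The numbers in each class depended on how long the lists were. Over all 15158 day 6 KLF4 regions, 79.5% had an H3K27ac peak in both day 9 libraries, against 54.2% of the members. With each H3K27ac and KLF4 list shortened to the number of peaks of the shortest list of its mark, the later acetylated share was 25.2%, and with the top 50% of every list it was 53.5%. The majority seen with whole lists was thus not kept at equal list lengths. Single libraries also set the counts. With 1 KLF4 library to define binding there were 14308 members, 6074 later and 6216 never acetylated, without EA-3702, and 9814 members, 3830 of them never acetylated, without DG-4040. Without the day 6 H3K27ac library of batch EA-3702, 5377 members were later acetylated. Day 9 acetylation of later members was weak next to that of regions already acetylated at day 6: the median fold was 4.68 and 5.03 in the 2 day 9 libraries, against 12.8 and 14.1.

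Later acetylated members had been bound by KLF4 somewhat more strongly at day 6 than never acetylated ones. The median fold was 4.68 against 4.25 in library EA-3702 and 4.75 against 3.93 in library DG-4040. In percentile rank within the list (100 is the best score) the medians were 47.2 against 40.4 and 69.3 against 52.1. Regions acetylated at day 6 stood at 74.5 in EA-3702 but at 67.1 in DG-4040, where the later acetylated members were as high. Over 4 equal groups of members in rising order of mean KLF4 rank, the later acetylated share went from 42.6% over 50.6% and 56.3% to 67.4%, and the never acetylated share from 42.8% to 20.2%. Members of the highest group were also wider, with a median of 415 bp against 302 bp in the lowest, and the part of width in this order was not tested.

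**Figure D1:**
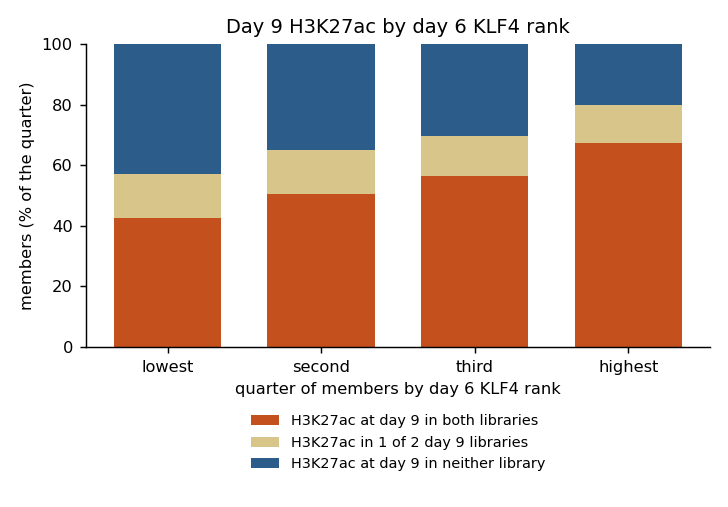
Share of members (%) in each day 9 H3K27ac class, in 4 equal groups of rising mean within-list rank of the day 6 KLF4 score; each bar adds up to all members of its group. The later acetylated part is 42.6% in the lowest group and 67.4% in the highest.

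Distance to genes hardly separated the classes. The median distance to the nearest start site of a protein-coding gene was 29353 bp for later acetylated and 31974 bp for never acetylated members, with 13.4% and 11.9% within 2.5 kb. These start distances cover the 3437 later and 2035 never acetylated members on chromosomes with given start sites. Start sites were given for 79.9% of the genes. Inside a gene lay 52.2% of all later and 50.9% of all never acetylated members. Both classes lay farther from start sites than the regions acetylated at day 6, whose median start distance was 3615 bp with 48.3% within 2.5 kb. Later acetylated members near a gene end (within 2.5 kb) made up 54.4% of all such members, against 53.7% of members over 10 kb away. No test was made on regions, which share libraries.

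Distance to day 6 acetylation separated them. Later acetylated members lay a median 7707 bp from the nearest day 6 H3K27ac peak and never acetylated members 25950 bp, and 33.4% against 5.23% lay within 1 kb. So 1184 of the 3546 later acetylated members lay close to chromatin that already carried the mark. Among the 4397 members over 5 kb from any day 6 peak the later acetylated share was 44.6% and the never acetylated share 39.6%, closer to each other than over all members. In that set the classes differed much as before: KLF4 was listed in both day 9 libraries at 84.0% of later and 54.2% of never acetylated members, and H3K27ac in both ESC libraries at 39.0% and 13.4%.

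**Figure D2:**
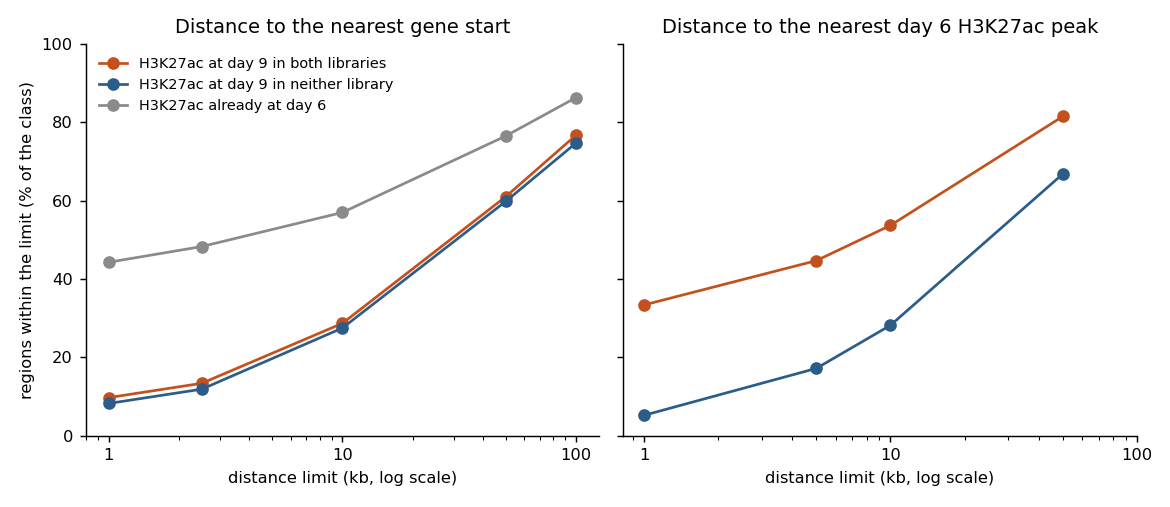
Share of each class (%) within a given distance, on a log axis in kb, of the nearest start site of a protein-coding gene (left) and of the nearest day 6 H3K27ac peak (right). The left side covers only regions on chromosomes with given start sites. On the left the later and never acetylated lines run together (13.4% and 11.9% within 2.5 kb) below the regions acetylated at day 6, and on the right they part (33.4% and 5.23% within 1 kb).

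KLF4 can have come ahead of acetylation in the strict sense at only some of the members, since part of them had carried the mark before day 6. A mark missing from the day 6 lists, the shortest of all, is also not known to have been absent. Of the later acetylated members, 866 (24.4%) lay within 200 bp of a day 6 H3K27ac peak. A MEF or day 3 H3K27ac peak in any library was absent at 1854 later acetylated members (52.3%) and at 1517 never acetylated members (72.1%). In contrast, both MEF libraries held a peak at 750 later acetylated members (21.2%), and at least 2 of the 3 day 3 libraries did at 761 (21.5%). For these the day 9 peak followed an earlier one that was not listed at day 6.

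H3K27ac at the members differed between stages. Of the 6539 members, MEF libraries listed it at 21.7 ± 0.368% (SD, n = 2) and day 3 libraries at 17.6 ± 6.55% (SD, n = 3). Day 9 libraries listed it at 61.0 ± 1.67% and ESC libraries at 34.0 ± 0.725% (SD, n = 2 for both). An exact permutation test of the between-stage F of 47.2, with 7560 labelings, gave p = 0.00476 and, adjusted over the 4 tests made, 0.0190. The members were chosen without the classes. The day 9 values in this test, however, come from the same peaks that define the classes. They are therefore no separate support for the later acetylated share. Counted in every library of a stage, members were below all day 6 KLF4 regions throughout: 19.3% against 47.8% in MEF, 7.66% against 44.8% at day 3 and 29.5% against 56.6% in ESC. The members had to lack the mark at day 6, and the part of this choice in the gap was not tested.

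Later acetylated members carried more H3K27ac than never acetylated ones at each of the 3 other stages, by an amount that differed between stages. In MEF the libraries gave 23.4% and 23.9% of later against 18.1% and 18.7% of never acetylated members, a difference of 5.23 ± 0.152 percentage points (SD, n = 2). This difference moved with the definition of the classes, to 9.39 and 10.1 points with either day 6 KLF4 library left out, 9.26 without the EA-3702 library of day 6 H3K27ac, 14.8 with batch EA-3702 only, 13.5 with the 50% overlap, 3.01 with lists of equal length and 2.61 with H3K27ac counted within 1 kb. At day 3 it was 33.4% against 10.9% in library EA-3702-1, 21.9% against 6.80% in DG-3458-1 and 16.3% against 5.28% in DG-3458-2, a difference of 16.2 ± 5.80 points (SD, n = 3). The day 3 values were widely spread, yet the later class was higher in all 3 libraries. In ESC it was 45.2% and 44.0% against 18.6% and 18%, a difference of 26.3 ± 0.361 points (SD, n = 2). The difference changed between stages with F = 13.2, for which an exact permutation test with 210 labelings gave p = 0.0286, the same after adjustment. In the same exact permutation test that call was lost without either MEF library (F = 6.97 and 6.85, p = 0.117 for both) and without either ESC library (F = 7.0 and 7.27, p = 0.100 for both). Without a day 3 library F was 80.1, 10.2 and 25.2, each at an exact permutation p of 0.0667, the smallest that the 90 labelings left can give, so that these 3 cannot show whether the call holds. The exact permutation call was also lost with an overlap of 50% of the shorter interval (F = 0.640, p = 0.543) and with 200 bp windows (F = 4.03, p = 0.171). The same held with the classes defined without the EA-3702 library of day 6 KLF4 (F = 7.31, exact permutation p = 0.0667). Without that of day 6 H3K27ac the call was also lost (exact permutation p = 0.0571), although F was 14.1, not below the main 13.2. In that setting the day 3 difference was 26.9 points. With lists of equal length the day 3 difference was 7.11 points, and 7.19 with only the H3K27ac lists shortened.

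Most members of either class did not go from no mark in MEF to a mark in ESC. Of the later acetylated, 933 (26.3%) had no MEF peak and an ESC peak in both libraries, 1436 (40.5%) had neither, 397 (11.2%) had both and 272 (7.67%) had the MEF peak alone. Acetylation at day 9 without a peak in either reference cell was thus the most frequent of these patterns. Of the never acetylated, 212 (10.1%) had the ESC peak alone and 1355 (64.4%) had neither.

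**Figure D3:**
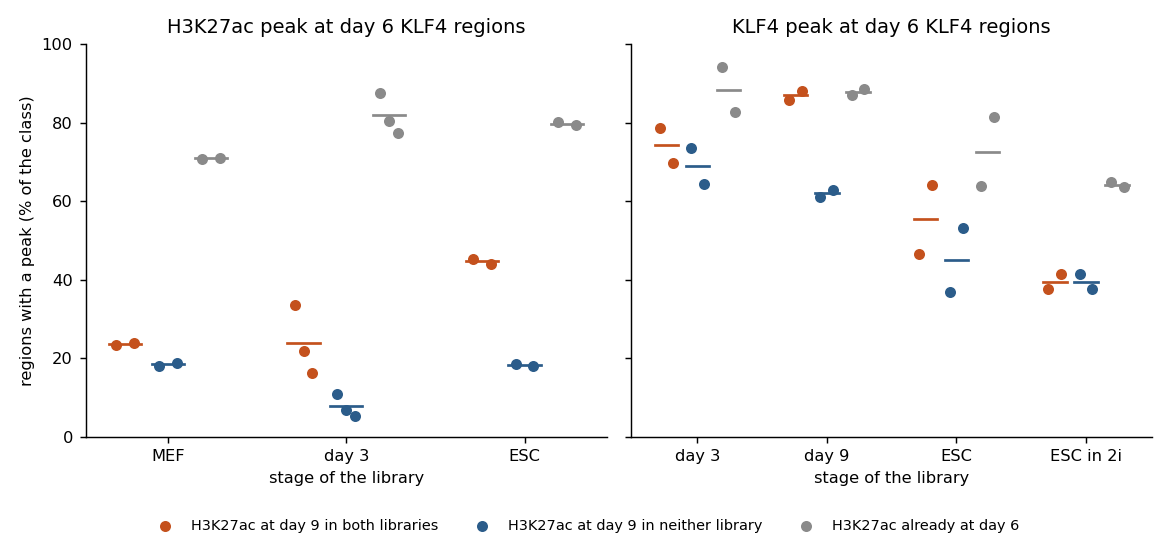
Share of regions (%) with an H3K27ac peak (left) or a KLF4 peak (right) in each library, for later acetylated members, never acetylated members and regions acetylated at day 6; each point is 1 library and each line the mean of a stage. Later exceed never acetylated members by 26.3 points for H3K27ac in ESC and by 24.9 points for KLF4 at day 9, and they overlap for KLF4 in 2i.

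KLF4 itself stayed on most members to day 9 and on fewer in ESC. The share of members with a KLF4 peak was 72.5 ± 6.54% for day 3 and 77.3 ± 1.44% for day 9 (SD, n = 2 for both). For ESC it was 50.9 ± 12.0% and for 2i 39.0 ± 0.551% (SD, n = 2 for both). An exact permutation test of the between-stage F of 13.7, with 2520 labelings, gave p = 0.0190 and an adjusted 0.0254. In the same exact permutation test the call was lost without either 2i library (p = 0.105 and 0.114), without day 9 library EA-3702-2 (p = 0.0667), with members defined without day 6 library DG-4040 (p = 0.0762) and with a q-value of at most 0.01 (p = 0.0952). It was also lost in the exact permutation test with batch EA-3702 only (F = 5.47, p = 0.114) and with labels permuted within batches (p = 0.167), where 12 labelings cannot reach 0.05. Members held KLF4 in both libraries of a stage less often than all day 6 KLF4 regions did, at 60.9% against 72.0% for day 3 and 70.8% against 77.9% for day 9. For ESC these shares were 40.6% against 52.9%, and for 2i 30.1% against 44.4%.

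The classes parted most at day 9. There KLF4 was listed at 85.8% and 88.0% of later and 61.1% and 62.9% of never acetylated members, a difference of 24.9 ± 0.291 points (SD, n = 2). At day 3 the difference was 5.29 ± 0.0273 points (78.7% against 73.5% in EA-3702, 69.7% against 64.4% in DG-4040), but it turned to -2.60 with lists of equal length and was 16.0 with day 6 library DG-4040 alone defining binding and 10.7 with EA-3702 alone. In ESC it was 10.3 ± 0.924 points, from 46.6% against 36.9% in library EA-2697 and 64.1% against 53.2% in EA-2643. In 2i the libraries disagreed, with 37.6% against 41.3% in EA-3702 and 41.3% against 37.5% in DG-3012, a difference of 0.0850 ± 5.36 points (SD, n = 2). The 2i difference was 5.73 points without day 6 KLF4 library EA-3702, 3.27 without DG-4040 and -1.99 with a q-value of at most 0.01. An exact permutation test of the change between stages (F = 30.9) gave p = 0.00952, the smallest that the 2520 labelings can give, and an adjusted 0.0190. Day 9 KLF4 and day 9 H3K27ac both came from batch EA-3702, and permuting within batches leaves 12 labelings with a smallest p of 0.0833.

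Retained binding and the mark went together at day 9 and again in ESC. Among the 4627 members with KLF4 in both day 9 libraries 63.0% were later acetylated, and among the 1053 with KLF4 in neither 28.5% were. The difference in KLF4 at day 9 was present within each of the 4 groups of day 6 KLF4 rank, at 61.0% against 34.1% in the lowest and 96.8% against 84.5% in the highest. In ESC, 64.5% of later acetylated members with KLF4 in both ESC libraries carried H3K27ac in both, against 29.7% of never acetylated members with KLF4 there. Where KLF4 was in neither ESC library these shares were 10.0% and 3.21%. Split by day 3 KLF4, 56.4% were later acetylated among members bound in both day 3 libraries and 50.7% among those bound in neither. This gap was not tested, and the day 3 class difference given above changed sign with lists of equal length.

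Seen from the mark, most regions acetylated at day 9 with no day 6 H3K27ac peak held no day 6 KLF4 peak. Of the merged regions acetylated in both day 9 libraries, 15495 (46.4%) overlapped no day 6 H3K27ac peak, and 18.1% of these held KLF4 in both day 6 libraries while 62.6% held it in neither. Of the 17897 with a day 6 peak in at least 1 library, 49.7% held KLF4 in both. The regions without a day 6 H3K27ac peak were narrower, with a median of 803 bp against 1770 bp. The part of width in this difference was not tested.

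Within 50 kb of a later acetylated member as its nearest gene lay 2474 protein-coding genes, 11.4% of the 21627 in the table. For never acetylated members the number was 1562 (7.22%), and 385 genes were near both. Most of the 2474 genes had a single such region (2034), and 15 was the most at any gene. The lists of genes below describe well-studied genes, which were chosen with results of these data known, so that shares above the background are descriptions only.

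Genes of epithelial junctions and keratins had many later acetylated members: 17 of 36 (47.2%), against 3 (8.33%) with a never acetylated one, a number that was 6 or 8 with either day 6 KLF4 library alone and 6 without day 9 H3K27ac library EA-3702-2. With lists of equal length it was 15 later against 9 never acetylated genes, and 16 against 11 with only the H3K27ac lists shortened. A KLF4 region already acetylated at day 6 lay at 15 of the 36 genes (41.7%), and at 5709 of all 21627. Of the 17 genes with a later acetylated member, 10 had no such region. Members at these genes that became acetylated numbered 28, of which 23 had no peak in either MEF library and 24 had KLF4 in both day 9 libraries, and 13 were acetylated in both ESC libraries. Over all 3546 later acetylated members these shares were 73.9%, 82.3% and 39.7%, so that the counts at epithelial genes lay near those of the whole class. At Cldn3, a claudin of tight junctions (chr5:134985676-134986254, 250 bp from the gene), H3K27ac was listed at 12.0 and 10.1 at day 9 and in no MEF, day 3 or ESC library, with KLF4 at 10.8 and 10.8 at day 6. Grhl3, a transcription factor of epithelial barrier formation, behaved alike inside the gene (chr4:135569246-135569702), with H3K27ac at 10.7 and 10.2 at day 9 only. These 2 members had a peak at day 9 and none in the ESC libraries. Of 2 more later acetylated members at Grhl3, one inside the gene (chr4:135545011-135545529) had H3K27ac at 6.83 and 6.08 in MEF, in all 3 day 3 libraries and at 8.89 and 7.74 in ESC.

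Perp, a protein of desmosomes (chr10:18870856-18871316), had H3K27ac at 6.47 and 5.21 at day 9 and none in ESC. Dsp, which codes for desmoplakin (chr13:38140564-38141032), had 4.81 and 4.69 at day 9 and 3.04 and 3.51 in ESC. Krt8, a keratin of simple epithelia (chr15:102003066-102003759), had 8.03 and 7.46 at day 9 and 4.70 and 4.16 in ESC. It also had a peak in 1 MEF and 2 day 3 libraries. Tjp3, a scaffold of tight junctions (chr10:81291391-81291800), had 4.44 and 5.03 at day 9 and 3.26 and 3.68 in ESC. A second Krt8 member (chr15:102000189-102000455) had no H3K27ac peak in any library. Cdh1, the gene of E-cadherin, was chosen after its values were seen: it had 5 members, all later acetylated, and that with the best KLF4 rank (chr8:106631564-106631999) had H3K27ac at 13.3 and 11 at day 9 and 6.76 and 4.2 in ESC.

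Among genes of naive and core pluripotency, 16 of 38 (42.1%) had a later acetylated member and 5 (13.2%) a never acetylated one (8 and 13 genes with either day 6 KLF4 library alone). A KLF4 region already acetylated at day 6 lay at 12 of the 38 (31.6%), and 8 of the 16 genes had none. The 20 later acetylated members at these genes carried H3K27ac in both ESC libraries in 18 cases, KLF4 in both day 9 libraries in 19 and H3K27ac in neither MEF library in 18. Over all later acetylated members these shares were 39.7%, 82.3% and 73.9%, so that the ESC count lay farthest from that of the class. At Pou5f1, which codes for OCT4, the member lay 1966 bp from the gene and 11 bp from a day 6 H3K27ac peak (chr17:35503876-35504258). Its H3K27ac fold was 6.47 and 7.23 at day 9 and 38.3 and 27.7 in ESC, and its KLF4 fold 12.3 and 7.87 at day 6 and 24.4 and 32.0 at day 9. The Zfp42 and Nr5a2 promoters shown above, in contrast, lay 1496935 and 146328 bp from day 6 acetylation.

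Klf2, a KLF family factor of naive cells (chr8:72316073-72316475), had H3K27ac at 16.1 and 17.7 at day 9 and 21.8 and 18 in ESC, but also at 24.7 in 1 of the MEF libraries. Zscan10, a zinc finger factor of ESC (chr17:23601164-23601648), had it at 4.2, 3.33 and 3.25 at day 3 and at 9.79 and 11.3 at day 9. At day 6 the nearest H3K27ac peak lay 53 bp from this Klf2 member and 132 bp from this Zscan10 member. Sall1, a zinc finger factor expressed in ESC, had members of both kinds. The one at chr8:88991764-88992437 had H3K27ac at 6.10 and 5.73 at day 9 and 15.0 and 15.7 in ESC, and the one at chr8:89015615-89016016 had none at day 9 and 22.0 and 24.3 in ESC.

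Never acetylated members at pluripotency genes mostly carried the mark in the ESC line. Of the 5, at Sall1, Prdm14, Dnmt3l, Esrrb and Zfp42, the first 4 had H3K27ac in both ESC libraries (14.7% over all never acetylated members), all 5 had KLF4 in both ESC libraries (34.6% over the class), and none had a MEF or day 3 peak (as for 72.1% of the class). Esrrb, a nuclear receptor of naive pluripotency chosen here after its values were seen, had folds of 14.8 and 19.1 in ESC with a low day 6 KLF4 rank of 17.5. The second Zfp42 region (chr8:43320844-43321055) had no H3K27ac peak in any library and KLF4 folds of 7.62 and 9.06 in ESC.

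Of the fibroblast and mesenchymal genes, 9 of 38 (23.7%) had a later and 10 (26.3%) a never acetylated member (16 without day 6 KLF4 library DG-4040). With lists of equal length it was 2 later against 14 never acetylated genes, and 2 against 15 with only the H3K27ac lists shortened. The order turned, to 6 and 4 genes, with a q-value of at most 0.01, and to 12 and 11 without the EA-3702 library of day 6 H3K27ac. Of the 11 later acetylated members there, 8 carried H3K27ac in both MEF libraries, and 4 in both ESC libraries, next to 21.2% and 39.7% of all later acetylated members. At Col6a1, a collagen VI chain (chr10:76728343-76728709), the fold went from 44.9 and 47.5 in MEF to 2.91 and 3.82 at day 9. At Col6a2, its partner chain (chr10:76623258-76623638), it went from 16.4 and 21.3 to 4.44 and 2.95, and neither was listed in ESC. A second Col6a2 member (chr10:76616223-76616556) had no MEF peak and 3.33 and 5.03 at day 9. Fold values of different lists are not on 1 scale, and they are given side by side only.

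Fn1, the gene of fibronectin, had a member without a MEF peak (chr1:71645933-71646381) with H3K27ac at 7.40 and 7.63 at day 9 and 18.9 and 16.7 in ESC. Its other member (chr1:71650707-71651033) had 42.3 and 29.3 in MEF, 10.0 and 13.2 at day 9 and 15.8 and 16.7 in ESC. Tpm1, a tropomyosin (chr9:67001382-67001818), had 5.21 and 4.40 in MEF and 2.74 and 3.25 at day 9. Col1a1, a chain of collagen I (chr11:94936846-94937384), was never acetylated after day 3: 28.3 and 26 in MEF, 3.95 and 2.68 in 2 day 3 libraries, and no peak at day 9 or in ESC, while KLF4 stayed listed in all 10 libraries. Col1a1 is also the site of the inducible cassette. Zeb2, a repressor of epithelial genes, had a never acetylated member (chr2:45088452-45088807) with H3K27ac in 2 day 3 libraries alone, and a later acetylated one (chr2:45117039-45117262) at 25.4 and 28.0 in MEF and 2.37 and 2.76 at day 9. Among the 12 never acetylated members of this list, 11 had no H3K27ac in either ESC library, next to 78.2% of all never acetylated members.

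The KLF and SP family, factors that share a DNA-binding domain with KLF4, had 9 of 26 genes with a later and 2 with a never acetylated member, and 7 of its 10 later acetylated members lay within 1 kb of day 6 acetylation, next to 33.4% of the whole class. Klf9 (chr19:23152169-23152558) had H3K27ac at 12.0 and 12.8 at day 9 and 18.9 and 18.5 in ESC, and Sp3 (chr2:72975669-72976216) at 30.2 and 31.7 at day 9 and at no other stage. Chromatin regulators had 10 of 33 and 4, FGF, LIF and WNT signalling 10 of 36 and 7, AP-1 and TGF-beta response genes 9 of 32 and 4, and trophoblast and extra-embryonic genes 6 of 28 and 3. In each of the 8 lists but the fibroblast one, more genes had a later than a never acetylated member, as in the whole table. The 9 later acetylated members at trophoblast genes, such as Tfap2c and Elf3, carried H3K27ac in both ESC libraries in 8 cases and the 4 never acetylated ones in 0, next to 39.7% and 14.7% over all members of these classes.

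**Figure D4:**
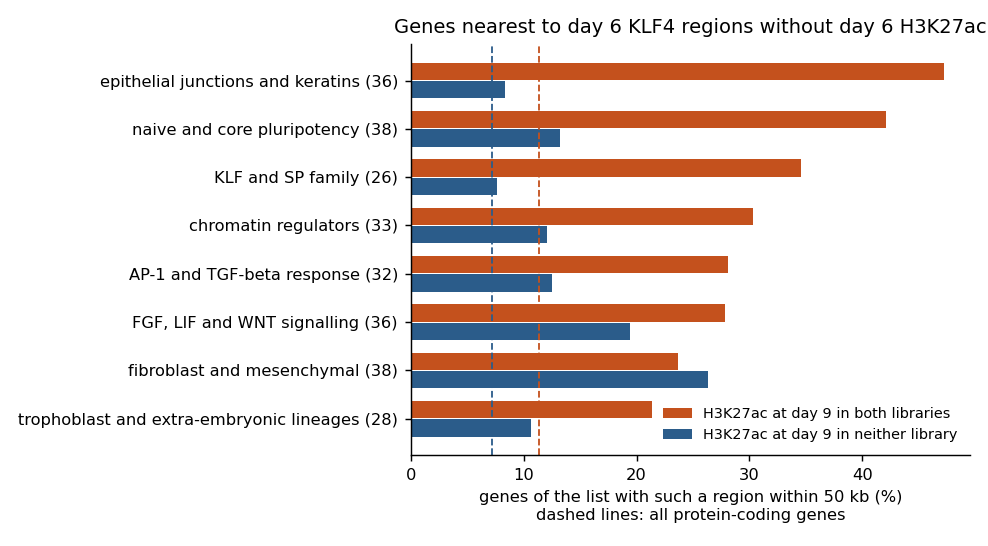
Share of the genes of each list (%; number of genes in brackets) that are the nearest gene, within 50 kb, of a later acetylated or a never acetylated member; dashed lines give the shares over all protein-coding genes, 11.4% and 7.22%. Epithelial genes stand highest for later acetylated members (47.2%), and fibroblast genes have more never (26.3%) than later acetylated ones (23.7%), an order that turns with a q-value of at most 0.01 and without 1 day 6 H3K27ac library.

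Most of the members of strongest day 6 KLF4 were bound in every KLF4 library. Of the 8 later acetylated members with the best KLF4 rank, near Grap, Slc25a23, Ctnnd1, Cd6, Rara, Atp1b2, Ulk1 and Trim2, 7 had KLF4 in all 10 libraries, 6 had H3K27ac in both ESC libraries and 3 in both MEF libraries. Over all later acetylated members these shares were 15.4%, 39.7% and 21.2%. Near Grap, an adaptor protein (chr11:61619746-61620848), KLF4 folds were 39.1 and 24.3 at day 6 and H3K27ac went from 14.0 and 14.5 in MEF to 5.36 and 5.55 at day 9. Inside Ulk1, a kinase that starts autophagy (chr5:110803992-110804504), no H3K27ac peak was listed up to day 6, and the folds were 5.73 and 7.63 at day 9 and 31.9 and 33.1 in ESC. Near Cd6, a lymphocyte receptor gene (chr19:10835675-10836153), it was 10.4 and 10.1 at day 9 and 8.81 and 6.32 in ESC.

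Of the 6 never acetylated members with the best KLF4 rank, 5 had no H3K27ac peak in any of the 12 libraries, next to 1237 (58.8%) of all 2103. They lay at Map3k6, Grin1, S100a13, Ankfn1 and Ptpn22. The member inside Map3k6, a stress kinase (chr4:133250474-133251532), had KLF4 folds of 38.7 and 25.9 at day 6, 12.1 and 13.0 at day 9, 23.1 and 16.9 in ESC and 42.0 and 17.2 in 2i. Inside Grin1, a subunit of the NMDA receptor (chr2:25292715-25293290), they were 16.4 and 20.1 at day 6 and 30.1 and 13.8 in ESC. Strong and lasting KLF4 binding thus occurred without a listed H3K27ac peak. The sixth, near Klhdc8a (chr1:132287958-132288607), was acetylated in both MEF, all 3 day 3 and both ESC libraries and not at days 6 and 9.

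Most of the members of strongest day 9 H3K27ac lay beside day 6 acetylation. The 8 best ranked were short, from 214 to 548 bp, with KLF4 ranks from 8.14 to 63.5, and 6 of them lay within 200 bp of a day 6 H3K27ac peak, next to 866 (24.4%) of all 3546 later acetylated members. They were near or in Sirt4, Mcl1, Eif5a, Qser1, Rcc2, Klf6, Sp3 and Tbl1xr1. In Klf6, an early response gene (chr13:5865556-5865769), H3K27ac was 35.6 and 40.0 in MEF and 35.8 and 45.9 at day 9, with a day 6 peak 68 bp away. Near Mcl1, a survival factor of the BCL2 family (chr3:95664939-95665367), it was 35.1 and 2.53 in MEF, 44.6 and 47.7 at day 9 and 45.5 and 43.0 in ESC. In Eif5a, a translation factor (chr11:69919624-69919913), it was 40.3 and 51.7 in MEF, 45.7 and 46.3 at day 9 and 56.8 and 49.9 in ESC. In 5 of the 8 both MEF libraries held a peak, next to 21.2% of the class.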

How the data were processed

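The authors deposited 1 peak list for each of 22 libraries, which makes each list the peaks of 1 sample, with no pooling. Per the submitters' processing notes the tools were cutadapt 1.8.1, Bowtie2 2.2.5, deepTools 2.3.6 and MACS2 2.1.1 and the build was mm10; their settings, the control used and the reads behind each list are not given in the sources used here. The lists have no header. In the authors' columns are each peak's score, its fold enrichment over background, its −log10 p-value and its −log10 q-value. These were used only to describe, rank or filter peaks within 1 list. With depth unknown, no counting interval is given for a peak, and a region without a listed peak is not a region without signal.

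Peaks of both day 6 KLF4 libraries on chromosomes 1 to 19 and X were merged, and merged regions overlapped by at least 1 bp in both libraries were kept. A region was called acetylated in a library when an H3K27ac peak shared at least 1 bp with it. The values tested were 1 percentage per library. Exact permutation tests over every labeling of the libraries, with the between-stage F as the statistic (larger F only, so without regard to direction), gave p-values that were Benjamini-Hochberg adjusted over 4 tests at a threshold of 0.05. The labels call these biological replicates without naming cultures or animals. Python 3.11.15, numpy 2.4.6, pandas 2.3.3 and scipy 1.17.1 were used, and the scripts were tested on simulated peak lists whose classes were known.

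Genes came from RefSeq for GRCm38.p6, the assembly behind mm10 (21627 protein-coding genes). Start sites with strand are given for 79.9% of them. The nearest gene was therefore taken, for all members, by the distance from the region to the gene, 0 inside it, in place of a distance to start sites for part of them. Named members are the 8 later acetylated and 6 never acetylated with the best mean day 6 KLF4 rank. To these were added the 8 with the best day 9 H3K27ac rank and up to 6 genes of each gene list. Genes over 200 kb away were passed over, and no member on chromosome 18 is named. The members, the gene lists and the tests were chosen with earlier results of these data known. The 13 input libraries were not analysed here.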

Additional observations from a re-analysis of the deposited data

Results flagged for a closer look

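The excess of H3K27ac at later over never acetylated members differed between MEF, day 3 and ESC, with F = 13.2 (exact permutation test, p = 0.0286). This call was lost in 12 of 25 alternatives (exact permutation p up to 0.543), among them leaving out either MEF or either ESC library. In 3 of the 12, which leave out a day 3 library, and with the replicate block the labelings cannot reach 0.05. The excess of KLF4 differed between day 3, day 9, ESC and 2i, with F = 30.9 (exact permutation test, p = 0.00952), and was lost in 1 of 25 alternatives, with labels permuted within batches. These are the between-stage tests of the class difference, and those of the share of members are given in Results. No group had the 4 libraries needed to look for a library that stands apart.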

How the results depend on the processing

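The share of H3K27ac at members kept its side of the threshold in 26 of 27 alternatives, the KLF4 difference between classes in 24 of 25, the KLF4 share in 18 of 25 and the H3K27ac difference between classes in 13 of 25. The exact permutation calls lost with other settings were the KLF4 share with a q-value of at most 0.01 (F = 5.69) or batch EA-3702 only (5.47), and the H3K27ac class difference with 50% overlap (0.640) or 200 bp windows (4.03). With labels permuted within batches F stayed 13.7 (exact permutation p = 0.167) for the KLF4 share and 30.9 (p = 0.0833) for the KLF4 class difference, where 12 labelings cannot reach 0.05. With the replicate block, F was 66.4 for the H3K27ac share and 80.1 for its class difference (exact permutation p = 0.167 for both, the smallest possible), and the numbers do not pair the samples, since deviations correlated at -0.0245 to 8.18e-04. Leaving out 1 library gave F of 6.13 to 46.6 for the KLF4 share and 6.85 to 80.1 for the H3K27ac class difference.

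Members numbered 3279 with the top 50% of each list, 10468 with batch EA-3702 only and 6539 to 14308 without 1 library. Later acetylated members numbered 1754 (top 50%), 1590 (equal numbers of peaks), 1746 (equal numbers of H3K27ac peaks only, chosen after seeing the data), 1961 (over 5 kb from day 6 acetylation, likewise) and 3656 to 6074 without 1 library. Never acetylated members numbered 1120 (top 50%), 4107 and 4663 (equal numbers, of both marks and of H3K27ac only), 1258 (q-value), 3622 (50% overlap), 3851 (EA-3702) and 2106 to 6216 without 1 library. The later share was 25.2% and 24.6% (equal numbers), 57.7% (q-value), 43.4% (overlap), 55.5% (H3K27ac within 1 kb), 52.9% (200 bp), 49.5% (EA-3702), 44.6% (over 5 kb) and 42.5% to 63.8% without 1 library. The KLF4 class difference at day 3 reversed to -2.60 and -1.94 points with equal numbers.

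Never acetylated epithelial genes numbered 0 (top 50%), 9 and 11 (equal numbers), 9 (overlap), 5 (200 bp), 8 (EA-3702) and 3 to 8 without 1 library. Never acetylated pluripotency genes numbered 2 (top 50%), 1 (q-value), 8 (overlap), 3 (1 kb), 8 (EA-3702) and 5 to 13 without 1 library, and later acetylated ones 9 over 5 kb away. Later acetylated fibroblast genes numbered 3 (top 50%), 2 and 2 (equal numbers, against 14 and 15 never acetylated) and 4 (over 5 kb), and never acetylated ones 4 (top 50%), 4 (q-value), 16 (EA-3702) and 10 to 16 without 1 library. The cause of these shifts was not tested. Depth is unknown, so that a peak missing from a short list cannot be told apart from a weak one.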
